A study of Mus musculus with 4 samples.

Results

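Genes that take up, store and export iron were examined in peritoneal macrophages, phagocytes of the abdominal cavity, with and without LPS, the lipopolysaccharide of the outer bacterial membrane, which activates macrophages. The 10 genes were chosen by name: *Tfrc*, *Slc11a2* and *Slc11a1* (uptake and transport), *Fth1* and *Ftl1* (storage), *Hmox1* (haem breakdown), *Slc40a1* and *Hamp* (export and its hormone), and *Ireb2* and *Aco1* (iron regulatory proteins). A probe was present for 9 of them, which are 9 of the 19938 genes on the array with a single symbol, by 11 probes in all, and no probe carried the symbol *Hamp*. The cells came from C57BL/6 mice, described as male and 6 to 8 weeks old where wild-type animals are introduced, and received either PBS (2 samples) or 100 ng/ml LPS (2 samples), with a treatment time of 6 h. Each sample was hybridised in Cy5 to its own Mouse OneArray Plus microarray. The samples are called biological replicates 1 and 2 of each group without a statement that they came from separate mice or cultures, so each p-value speaks only for the scatter among these 4 arrays, which may be technical.

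Macrophages clear old red cells and recycle their iron. Transferrin-bound iron enters through the transferrin receptor, leaves the endosome through DMT1, is kept in ferritin, a shell of heavy and light chains, and leaves the cell through ferroportin, the only known cellular iron exporter of mammals, which hepcidin removes from the membrane. Iron regulatory proteins bind stem-loops in the mRNAs of several of these genes and so set mRNA stability or translation, and an array reads only the mRNA. During infection macrophages are known to hold iron back from extracellular microbes.

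The arrays responded to LPS: *Il6*, the cytokine the study centres on, had log2 signals of 8.08 and 9.13 with PBS and 16.82 and 17.03 with LPS. LPS replicate 1 was the dimmest array, with a median raw signal of 683 against 1026 to 1054 on the others and 55.8% of probes above background (detection p under 0.05) against 61.7% to 63.3%. Of 8 macrophage markers, 7 were measured and all 7 were above background on all 4 arrays. *Fcgr1* and *Cd14* were higher with LPS past the test (limma adjusted p = 0.0348 and 0.0319). *Csf1r* had a log2 difference of -1.15 that did not pass (adjusted p = 0.0839), and the other markers did not pass either. Of 9 erythroid markers 5 were measured, none of them a haemoglobin gene. Among these 5, 2 were above background on all 4 arrays, 2 on none, and 0 passed the test. All 11 iron gene probes were above background on all 4 arrays. Levels are log2 signals after quantile normalization, which gives every array the same distribution, and different probes' levels are not compared.

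None of the 9 measured genes passed the test (limma with Benjamini-Hochberg adjustment over 19938 genes, adjusted p under 0.05): 0 were higher and 0 lower with LPS, where 3.22% of all genes were higher and 2.32% lower. Without adjustment, at p under 0.05, the 9 genes held 0 higher and 1 lower, and all genes held 2388 higher (12%) and 2769 lower (13.9%). Both LPS arrays lay above both PBS arrays for 3 genes (*Slc11a2*, *Hmox1* and *Fth1*), which 32.2% of all genes did, and below them for 2 genes (*Tfrc* and *Slc40a1*), which 27.5% did; in the other 4 the groups overlapped. The median log2 fold change of the 9 genes was 0.03, against 0.04 over all genes, and the median size of the change was 0.36 against 0.40. A single probe, the dimmer of the pair for *Slc11a2*, passed the test when every probe had its own row. In these bulk samples, fewer cells of a type and less RNA per cell cannot be told apart.

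**Figure D1:**
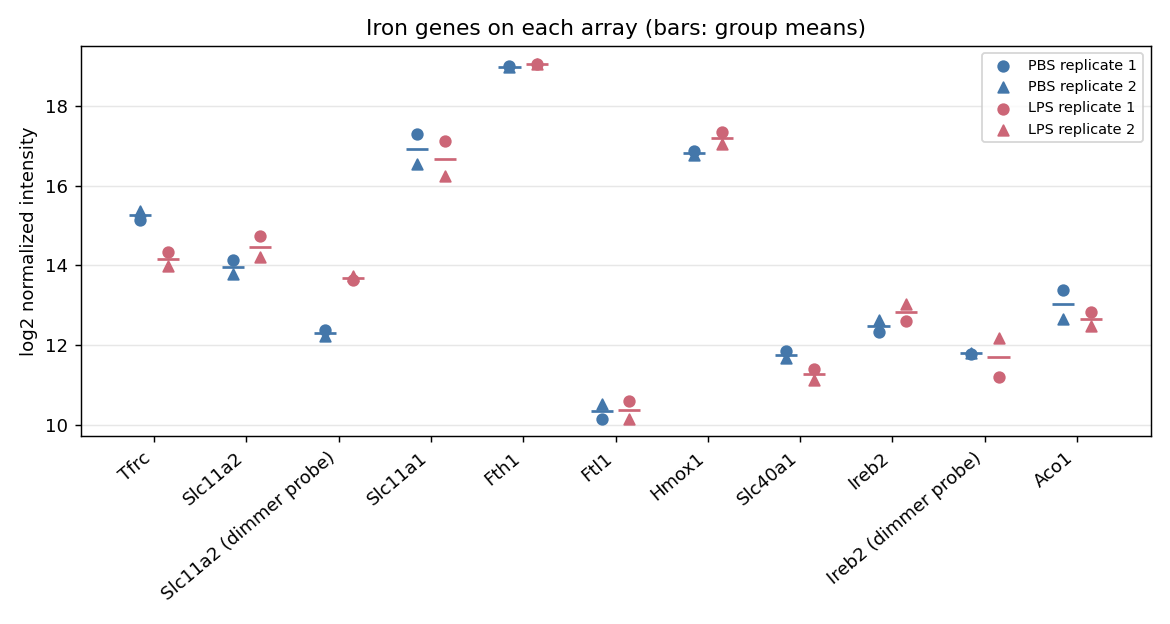
Log2 normalized intensity (vertical axis) of the 11 probes of the 9 measured iron genes, with a point for each array (circle replicate 1, triangle replicate 2; blue PBS, red LPS) and a bar at each group mean. The Tfrc points fall from 15.15 and 15.36 with PBS to 14.34 and 13.98 with LPS, and the dimmer Slc11a2 probe lies at 12.37 and 12.23 with PBS and at 13.64 and 13.74 with LPS.

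*Tfrc* encodes the transferrin receptor, the main entry for iron carried in blood. The 2 PBS arrays read 15.15 and 15.36 on the log2 scale, and the LPS arrays 14.34 and 13.98. Both LPS arrays were below both PBS arrays. The raw signals, before any scaling, were 41427 and 36373 with PBS and 17790 and 16800 with LPS. The fitted difference was -1.09 (SE 0.24, n = 2 per group), a 2.14-fold lower level with LPS, with a 95% interval from -1.70 to -0.49. It was the largest difference among the 9 genes in the fit with 1 probe per gene, and it missed the threshold by limma (unadjusted p = 0.00546, adjusted p = 0.069). Over 15 alternative ways of processing it ranged from -1.24 to -0.82 and passed the test in none, with adjusted p from 0.0528 to 0.359.

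Sequence before the start of a gene was available from RefSeq (build GRCm38.p6) for 7 of the 10 genes, in 9 windows of 250 bases each, and *Tfrc* is shown because its difference was the largest of the 9 genes. *Tfrc* has 2 windows, and that of its second start, chr16:32608872-32609121 on the plus strand, was picked for printing after the matches were seen, since it held matches to 5 of the 7 motifs searched and the window of the first start to 2. The window of the first start ends at 32608895, so most of the printed window lies after the first start. Capitals mark every match on either strand.
Tfrc, second start: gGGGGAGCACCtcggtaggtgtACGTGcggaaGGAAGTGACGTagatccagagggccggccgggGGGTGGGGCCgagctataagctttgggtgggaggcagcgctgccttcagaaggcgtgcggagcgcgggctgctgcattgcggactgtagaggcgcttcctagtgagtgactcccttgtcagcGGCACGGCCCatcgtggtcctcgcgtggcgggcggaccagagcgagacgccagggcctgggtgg
The letters searched were ACGTG for the hypoxia response core, TGACGT for the cyclic AMP response core, GGAAGT for the ETS core, TGCNCNC for the metal response element and TGACNNNGC for the antioxidant response element. An interferon-stimulated response element (GAAA, 2 free bases, GAAA) and an NF-kB-like motif (GGG, 5 free bases, CC) were searched too. In the printed window the hypoxia core began at position -228 from the start, the ETS core at -218 and the cyclic AMP core at -213, where the last base of the ETS core is the first base of the cyclic AMP core. The metal response match at -248 lies inside an NF-kB-like match at -249, and NF-kB-like matches also began at -186 and -64. The window of the first start held 0 matches to any of these 3 cores.

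Across the 9 windows, 13 of 63 combinations of motif and window had a match. The hypoxia, cyclic AMP and ETS cores were each in 1 of 9 windows, that of the second *Tfrc* start, and in 16.6%, 6.47% and 19.7% of the 32851 windows of all genes. NF-kB-like letters were in 7 of 9 windows and in 45.8% of all windows, and metal response letters in 3 of 9 and in 44.4%. The *Tfrc* windows overlap, so the same NF-kB-like and metal response letters are counted in both. The antioxidant and interferon motifs were in 0 of 9 windows and in 10.2% and 2.98% of all windows. No window was available for *Slc11a2*, *Hmox1* and *Slc40a1*, so these counts do not cover them. These matches are letters in a window and are not binding sites.

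*Slc11a2* encodes DMT1, which moves ferrous iron out of the endosome into the cytosol. The brighter of its 2 probes, which stands for the gene, gave 14.12 and 13.80 with PBS and 14.73 and 14.21 with LPS. Both LPS arrays were above both PBS arrays, by a margin smaller than the spread within the LPS group. The difference was 0.51 (SE 0.28, n = 2 per group) and did not pass the test (limma adjusted p = 0.307). The dimmer probe gave 12.37 and 12.23 with PBS and 13.64 and 13.74 with LPS. Here the groups were well apart and the arrays within each were close. With every probe on its own row, where 2.68% of 26423 probes were higher and 1.68% lower, this probe rose by 1.39 (SE 0.20, 95% interval 0.87 to 1.91), a 2.62-fold higher level, with a limma adjusted p of 0.0351. The mean of both probes differed by 0.95 (adjusted p = 0.0763). The sources used here do not say which transcript of *Slc11a2* each probe reads.

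The rise of the dimmer *Slc11a2* probe kept its direction in all 14 alternatives, from 1.12 to 1.47, and passed the test in 5 of them, with adjusted p from 0.0238 to 0.257. Leaving out any of the 4 arrays ended the call (adjusted p = 0.188 and 0.257 without PBS replicates 1 and 2, and 0.102 and 0.0764 without LPS replicates 1 and 2), as did scaling to the 75th percentile (0.077).

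*Slc11a1* encodes NRAMP1, a metal transporter of the phagosome membrane that is known for its part in resistance to intracellular microbes. On the log2 scale it read 17.28 and 16.53 with PBS and 17.12 and 16.24 with LPS. The groups overlapped, and in each group replicate 1 was higher than replicate 2. The difference was -0.23 (SE 0.41, 95% interval -1.28 to 0.82, limma adjusted p = 0.745). Of 4 mesothelial markers, 3 were above background on all arrays. Their summed raw signal came to 25488 and 54062 in PBS replicates 1 and 2 and to 12413 and 56566 in the LPS replicates. The sum was higher in replicate 2 of each group, and *Wt1* and *Upk3b* gave most of it. *Krt19* (2309 and 1679) and *Msln* (663 and 510) were lower in PBS replicate 2 than in PBS replicate 1. In the LPS group both were higher in replicate 2 (1193 and 2023, and 220 and 422). Among the macrophage markers, on the log2 scale, *Mertk* was higher in replicate 2 of each group and all others measured in replicate 1. *Adgre1* read 16.29 and 15.15 with PBS and 16.67 and 15.76 with LPS. For large peritoneal macrophages, *Timd4*, *Icam2* and *Prg4* were higher in replicate 1 of each group and *Gata6* in replicate 2, while *Selp* differed between groups. The part of any of these cells in the *Slc11a1* values was not tested.

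**Figure D2:**
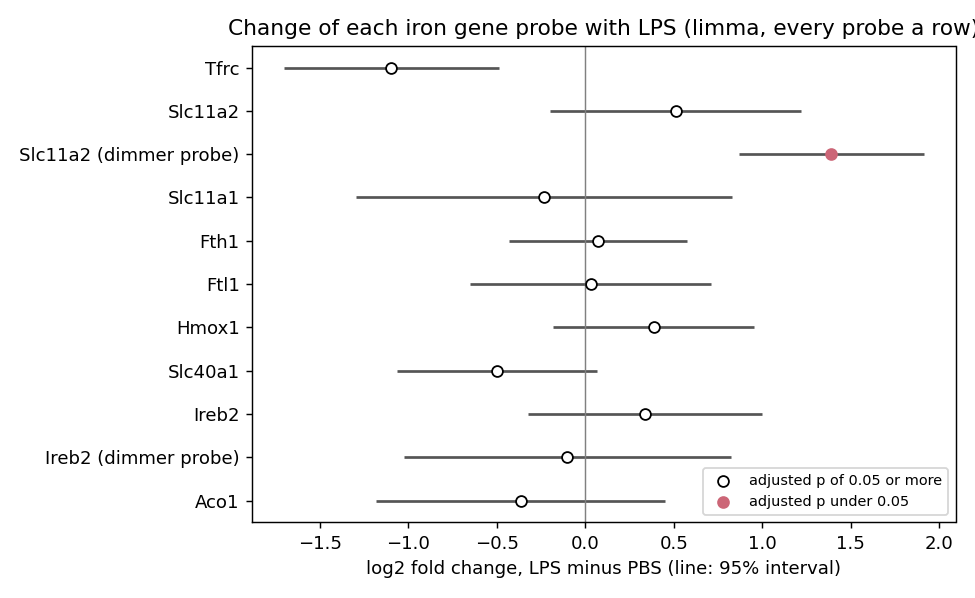
Log2 fold change, LPS minus PBS (horizontal axis), of each of the 11 probes with every probe on its own row; lines are 95% intervals from limma and the filled point passed the adjusted test. Only the dimmer Slc11a2 probe, at 1.39, is filled, and the interval of Tfrc, from -1.70 to -0.49, also excludes 0.

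Both ferritin chains were measured. *Fth1*, the heavy chain that oxidises iron for storage, gave 19.00 and 18.96 with PBS and 19.05 and 19.05 with LPS. Its probe ranked 4 and 5 among the 26423 probes by brightness with PBS and 3 and 3 with LPS. At this rank quantile normalization leaves little room for a difference: it was 0.07 (SE 0.20, limma adjusted p = 0.836), and 0.53 when arrays were scaled to their 75th percentile, which also did not pass. The probe of *Ftl1*, the light chain, gave 10.16 and 10.53 with PBS and 10.59 and 10.16 with LPS. By brightness it ranked 12329 and 11121 with PBS and 10935 and 12319 with LPS. How well this probe reads *Ftl1* was not tested. The groups overlapped, with a difference of 0.03 (SE 0.27, adjusted p = 0.951).

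*Hmox1* encodes haem oxygenase 1, which opens the haem ring and frees its iron. On the log2 scale it read 16.85 and 16.75 with PBS and 17.35 and 17.04 with LPS. Both LPS arrays were above both PBS arrays. The difference of 0.39 (SE 0.22, 95% interval -0.18 to 0.96) did not pass the test (limma adjusted p = 0.329). Over 15 alternatives it lay between 0.24 and 0.85 and passed in none. It was larger without quantile normalization: 0.50 with no scaling, 0.68 with cyclic loess, 0.78 in the authors' processed values and 0.85 with 75th percentile scaling.

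*Slc40a1* encodes ferroportin. The PBS arrays read 11.86 and 11.68 on the log2 scale, and the LPS arrays 11.40 and 11.14. Both LPS arrays were below both PBS arrays. The difference was -0.50 (SE 0.22, n = 2 per group), a 1.41-fold lower level, with a 95% interval from -1.06 to 0.07 and a limma adjusted p of 0.235. It was negative in all 15 alternatives, from -0.84 to -0.37, and passed the test in none. *Hamp* encodes hepcidin and gives no value here. *Hamp2*, its mouse paralogue, had its own probe, not above background on LPS replicate 1, at 9.92 and 9.79 with PBS and 10.09 and 9.87 with LPS, a difference of 0.13 (adjusted p = 0.731).

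Neither gene of an iron regulatory protein passed the test. *Ireb2*, which encodes IRP2, gave 12.33 and 12.63 with PBS and 12.60 and 13.04 with LPS on the probe that stands for it. The groups overlapped, with a difference of 0.34 (SE 0.26, limma adjusted p = 0.443). Its other probe gave 11.78 and 11.81 with PBS and 11.22 and 12.17 with LPS, where the LPS arrays lay on either side of the PBS arrays (difference -0.10, adjusted p = 0.880 with every probe on its own row). *Aco1*, which encodes IRP1, an enzyme that serves as cytosolic aconitase when it holds an iron-sulphur cluster, gave 13.38 and 12.67 with PBS and 12.84 and 12.48 with LPS. The difference was -0.36 (SE 0.32, adjusted p = 0.499), and the groups overlapped.

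With 2 arrays per group, the standard errors of the 9 genes ran from 0.20 to 0.41. The 95% interval lay within 2-fold either way for 3 of the 9, *Fth1*, *Ftl1* and *Hmox1*. *Fth1* had the smallest standard error, and quantile normalization gave it the same value on both LPS arrays because it ranked 3 on each. These intervals hold for quantile-normalized signals. With 75th percentile scaling the difference was 0.53 for *Fth1* and 0.85 for *Hmox1*. A p that misses the threshold therefore does not show that a gene was unchanged.

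**Figure D3:**
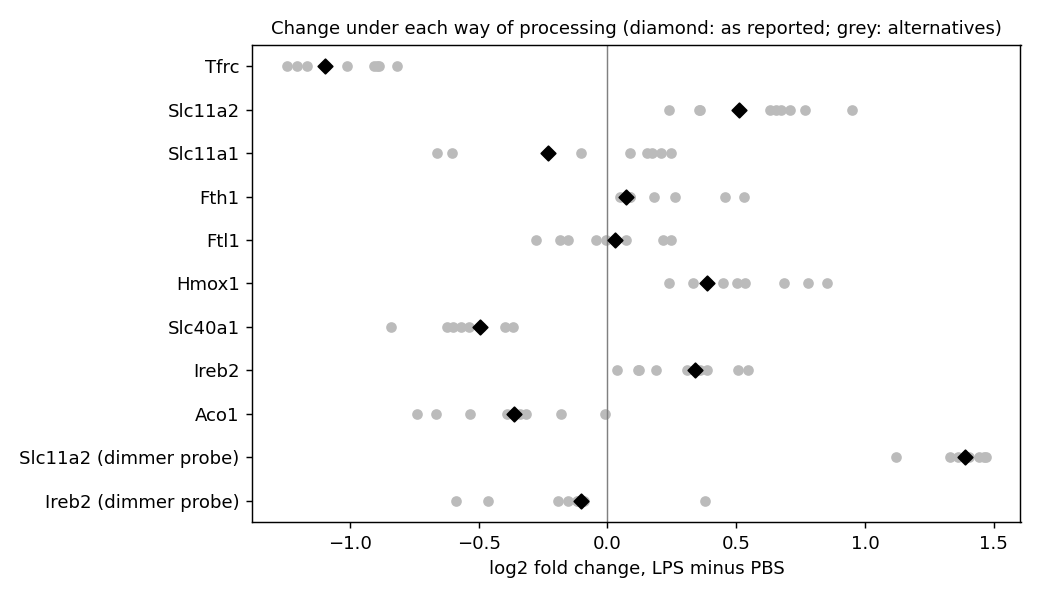
Log2 fold change, LPS minus PBS (horizontal axis), of each iron gene as reported (black diamond) and under each alternative way of processing (grey points). Tfrc and Slc40a1 lie below 0 and Slc11a2, Hmox1, Fth1 and the brighter Ireb2 probe above 0 throughout, while Slc11a1 runs from -0.66 to 0.25 and Ftl1 from -0.28 to 0.25.

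The wider iron pathway was read from 8 lists with 97 genes, of which 92 were measured. With LPS 5 were higher and 5 lower past the same test (limma, background 3.22% and 2.32%), and the median log2 fold change was -0.09. The number of calls moved with the processing. Fits that left out an array had a lone array in 1 group, so fewer calls there cannot be told apart from lost replication. There were 2 higher and 2 lower with the authors' processed values, 2 and 3 with no scaling between arrays, 3 and 2 with 75th percentile scaling, and 0 and 0 with the methods' t-test. Of the 10 called genes 5 passed in none of the 4 fits that left out an array (*Cd163*, *Mafk*, *Hif1a*, *Acvr1* and *Hfe*) and 0 passed in all 4, while the sign of the 10 changed in no alternative.

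Of 17 measured genes for uptake of haem and iron and endosomal handling, 1 was higher and 1 lower. *Lcn2*, which encodes lipocalin 2, a protein that binds bacterial siderophores and so withholds iron, gave 10.11 and 9.04 with PBS and 15.24 and 15.93 with LPS. That is a difference of 6.01 (SE 0.45), a 64.3-fold higher level (adjusted p = 0.00576). Neutrophils also express *Lcn2*. Of 5 neutrophil markers measured, 2 were above background on all 4 arrays and 1, *Csf3r*, was higher with LPS (adjusted p = 0.0312), while *S100a8* was above background on no array. The other 4 did not pass, with differences from -0.49 (*Retnlg*) to 0.34 (*Ngp*), and the median of the 5 was -0.32. The summed raw signal of the 5 was 10319 and 7329 in the PBS samples and 15640 and 22484 in the LPS samples, of which *Csf3r* alone gave 7823, 5158, 14211 and 20770. The part of such cells in the *Lcn2* value was not tested. *Cd163*, the haemoglobin-haptoglobin receptor, was called lower (adjusted p = 0.0299) with its probe not above background on any array, so no fold is given. *Slc48a1*, a transporter of haem out of the phagolysosome, had a difference of -1.13 that did not pass (adjusted p = 0.0558).

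Of 7 measured export genes, 1 was higher. *Cp*, which encodes ceruloplasmin, a ferroxidase that works with ferroportin, gave 9.47 and 9.31 with PBS and 12.52 and 13.25 with LPS, a difference of 3.50 (SE 0.31, adjusted p = 0.00783). The probe was not above background on PBS replicate 1. A second *Cp* probe, above background on both LPS arrays and neither PBS array, was also higher with every probe on its own row (adjusted p = 0.0143).

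Of 10 measured genes of haem breakdown and its transcription control, 1 was higher and 1 lower. *Blvra*, which encodes biliverdin reductase A, the enzyme after haem oxygenase, gave 17.41 and 17.45 with PBS and 14.61 and 15.01 with LPS. It fell by 2.63 (SE 0.23), a 6.18-fold lower level (adjusted p = 0.00825). *Mafk*, a small Maf protein that pairs with the regulators of *Hmox1*, rose by 1.94 (adjusted p = 0.0216).

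**Figure D4:**
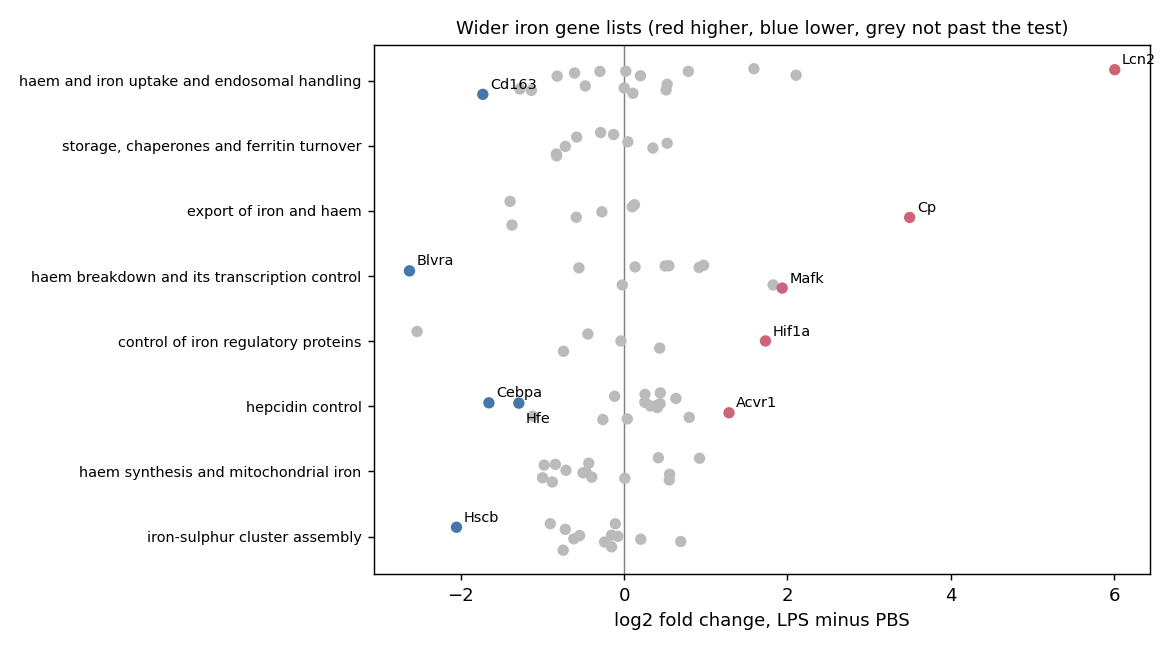
Log2 fold change, LPS minus PBS (horizontal axis), of the 92 measured genes of 8 iron-related lists (vertical axis, with points spread within a list only to separate them). Red points were higher and blue points lower past the test; Lcn2 at 6.01 and Cp at 3.50 lie farthest to the right and Blvra at -2.63 farthest to the left.

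A list of genes related to the iron regulatory proteins had 6 measured genes, of which 1 was higher. That was *Hif1a*, a hypoxia-inducible factor, by 1.73 (adjusted p = 0.0414), a call that held in 5 of 15 alternatives. *Epas1*, the related factor, had a difference of -2.53 that did not pass (adjusted p = 0.0883). *Fbxl5*, *Skp1*, *Cul1* and *Rbx1* of this list did not pass either. Of 16 genes of hepcidin control, *Acvr1*, a BMP receptor, rose by 1.28 (adjusted p = 0.0460), while *Hfe*, the gene of hereditary haemochromatosis, fell by 1.29 (adjusted p = 0.0466) and *Cebpa*, a transcription factor, fell by 1.65 (adjusted p = 0.0208). The calls of *Acvr1* and *Hfe* each held in 6 of 15 alternatives and were lost with every probe on its own row (adjusted p = 0.0525 and 0.0532). Of 13 genes of iron-sulphur cluster assembly, *Hscb*, a co-chaperone, fell by 2.05 (adjusted p = 0.0367). The 9 genes of storage, chaperones and ferritin turnover and the 14 of haem synthesis and mitochondrial iron gave 0 calls by limma. Without adjustment, at p under 0.05, the storage list held 0 higher and 1 lower and the haem synthesis list 1 higher and 4 lower, and the 92 genes of all lists held 16 higher and 19 lower, where 12% of all genes were higher and 13.9% lower.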

How the data were processed

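Peritoneal macrophages with PBS or LPS were profiled on 4 single-colour arrays. The authors deposited linear signal intensity values per probe and array, taken as background-subtracted because 60 values on LPS replicate 1 lie at or below 0. The sources used here name neither scanner nor background correction. A deposited detection p-value per probe decided which probes were above background (p under 0.05), and a flag of unstated meaning was carried by 0 iron probes. A second deposited table holds the same intensity times a constant per array and served as an alternative.

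After quantile normalization, log2 signals of LPS and PBS arrays were fitted in limma 3.58.1 (R 4.3.3, statmod 1.5.0; lmFit, then eBayes) with Benjamini-Hochberg adjustment over 19938 genes. The probe with the highest mean stood for a gene. The fit has 2 residual degrees of freedom and a prior of 3.11; the number of arrays limits the precision. The exact permutation test of 2 against 2 cannot go below p = 0.333. The fit was also run on simulated independent noise with known folds put in, and the only condition was that the median fitted size matched them. That run did not cover normalization, array effects or the origin of the replicates. Symbols were updated through RefSeq synonyms.

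The genes, the lists and the tests were chosen with earlier results of these data known. All listed genes were counted, and at most 4 per list that passed the test, by size of change, were named. Genes named outside this rule after their values were seen are *Slc48a1*, *Epas1*, *Hamp2*, *Csf3r*, *S100a8*, *Retnlg* and *Ngp*. So are *Fbxl5*, *Skp1*, *Cul1*, *Rbx1*, *Wt1*, *Upk3b*, *Krt19* and *Msln*. The same holds for *Mertk*, *Adgre1*, *Timd4*, *Icam2*, *Prg4*, *Gata6*, *Selp*, *Fcgr1*, *Cd14* and *Csf1r*. Motifs were searched on both strands of 250 bases before each start. The 7 motifs were picked with known features of iron gene promoters in mind, the NF-kB-like motif was run after the other 6, and the printed window was picked after its matches were seen.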

Additional observations from a re-analysis of the deposited data

How the results depend on the processing

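None of 15 alternatives with 1 value per gene brought any of the 9 iron genes past the test. Where an array was left out, the lone array of its group was assumed to vary like the others. With every probe on its own row 1 iron gene was higher, through the dimmer *Slc11a2* probe. *Slc11a1* turned positive at 0.247 under 75th percentile scaling, at 0.0892 under cyclic loess and at 0.17 in the processed values of the authors, and ranged from -0.66 to 0.21 when each array was left out. *Ftl1* turned negative at -0.0449 with cyclic loess, -0.28 with no scaling and -0.0041 with the processed values, and ranged from -0.18 to 0.25 with arrays left out. The dimmer *Ireb2* probe ranged from -0.59 to 0.38 with arrays left out. The alternatives for the dimmer probes were chosen after seeing the data.

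Over all genes, 642 were higher and 462 lower. The counts were 398 and 131 with 75th percentile scaling, 254 and 177 with no scaling, and 327 and 109 with the processed values. Cyclic loess gave 257 lower. An ordinary t-test gave 0 and 0 after adjustment over 19938 genes. With 2 residual degrees of freedom per gene it has little power, so these counts say little about the processing. Leaving out each array gave 39 to 415 higher and 1 to 641 lower. The cause was not tested. The share of calls that were higher was 58.2%, 75.2% after 75th percentile scaling, 75% in the processed values and 67.4% under cyclic loess. With no scaling the median of all genes moved to -0.35.

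The deviations of same-numbered replicates correlated at 0.239 between groups, and with 2 pairs the numbers do not show pairing. With the replicate block 651 genes were higher and 514 lower, 0 and 0 of the iron genes, and 4 higher and 4 lower of the wider lists, where *Hif1a* and *Hscb* lost their calls. Under the block the dimmer *Slc11a2* probe had an adjusted p of 0.0513.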
